A study of Mus musculus with 2 samples.

Results

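The genes described here encode the pre-B receptor and the machinery that early B cells use to build it. They are Vpreb1 and Igll1 of the surrogate light chain, the related Vpreb3, the signalling chains Cd79a and Cd79b, the adaptor Blnk, the co-receptor Cd72 and the recombinase genes Rag1 and Rag2. These 9 genes were chosen by name among the 31709 gene names on an Agilent whole mouse genome array. Of the 9, 8 carry their symbol in the scanner output, and the probe for Igll1 carries a transcript identifier there and was found through its description.

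Total RNA of mouse Ba/F3 cells was hybridised in a single colour to 1 array for each of 2 cell lines. Ba/F3 is an established pro-B cell line that depends on interleukin-3. The first sample was the parental Ba/F3 line, labelled as the control, and the second was its variant BaF/3 (#BEB1), which binds the peptide Ecrg4. The variant is a single clone, taken after 5 rounds of sorting from parental cells that had been infected with a retroviral cDNA library of CG4 cells, so a difference may belong to the clone, to the virus or to the selection, and these cannot be told apart. With 1 array for each line there were no replicates, no test was possible and every value below is a size only.

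The deposited files do not settle which array belongs to which line. Over 39429 probes, the value table of the parental cells correlated with the scanner output filed under BaF/3 (#BEB1) at r = 0.999987 and with that filed under the parental cells at r = 0.982254. The table of BaF/3 (#BEB1) correlated with the parental scanner output at r = 0.999967 and with its own at r = 0.982275. The array that the table gives to BaF/3 (#BEB1) and the scanner output gives to the parental cells is therefore written array A, and array B is its counterpart. All differences subtract the log2 value of array B from that of array A, so a negative difference means lower in BaF/3 (#BEB1) if the table holds and higher in BaF/3 (#BEB1) if the scanner output holds. Olr1 encodes LOX-1, the scavenger receptor that was cloned from a cDNA library of BaF/3 (#BEB1) in this study. Its signal was 12962 on array A against 289.5 on array B, a difference of 5.01. The paper states that a microarray showed far more mRNA of this receptor in the variant line than in the parental line. That statement goes with the labels of the value table and not with those of the scanner output. It rests on these same arrays and so is no separate check of the labels. No measured gene, Olr1 included, was used to assign an array to a line here.

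A pro-B cell becomes a pre-B cell once it has joined the gene segments of an immunoglobulin heavy chain. RAG1 and RAG2 cut the DNA for this joining, and the heavy chain is then tested at the cell surface together with a surrogate light chain, which stands in for the light chain that has not yet been made. The surrogate light chain and heavy chain form the pre-B receptor with CD79A and CD79B, whose cytoplasmic tails recruit the kinase SYK, and BLNK links SYK to the enzymes downstream.

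Levels below are background-subtracted signals divided by the 75th percentile of their array, which was 1506 on array A against 1080 on array B, and are given as log2 values. Well above background is the scanner software's own call on a spot, and it held for 49.4% of the probes on array A and for 49.9% on array B. The ± beside a signal is the software's estimate of its technical error and not a spread between cultures. The lowest signal of any probe called well above background was 27.6 on array A against 22.9 on array B, and no spot was saturated. In bulk RNA, fewer cells that express a gene and less transcript in each cell cannot be told apart.

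Of the 9 genes, 4 were well above background on both arrays, namely Vpreb1, Vpreb3, Cd79b and Cd72, and all 4 were higher on array B by 2-fold or more. None was higher on array A. The other 5, Igll1, Cd79a, Blnk, Rag1 and Rag2, were near background, with no probe called well above it. Over the whole array, 14815 genes were well above background on both arrays, of which 1082, or 7.3%, passed 2-fold towards array B and 570, or 3.85%, passed it towards array A. This balance turned when each array was scaled to its median, with 587 genes towards array B and 1313 towards array A, while the 4 genes stayed past 2-fold towards array B. The median difference was -1.51 over the 4 measured genes and -0.02 over all measured genes. The normexp correction models the background in place of the software's subtraction. It then adds an offset of 50 to every signal, which by construction draws the differences of dim probes towards 0. With this correction the count on array B was 2 of 4 in place of 4. The parts of the model and of the offset in this fall were not tested.

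**Figure D1:**
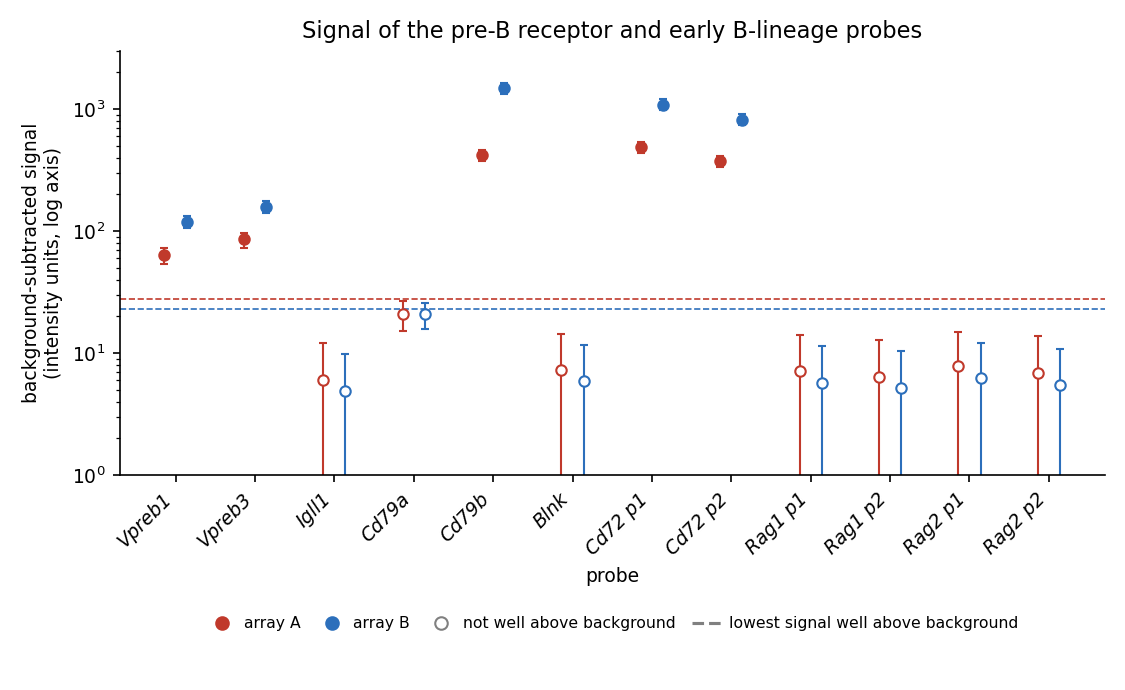
Background-subtracted signal in intensity units on a log axis for the 12 probes of the 9 genes, with red points for array A and blue points for array B, and bars for the scanner software's error estimate, which run off the lower edge where the error reaches the signal. Filled points are well above background and open points are not, dashed lines mark the lowest signal called well above background on each array, and p1 and p2 number the probes of a gene. The probes of Vpreb1, Vpreb3, Cd79b and Cd72 lie above the dashed lines with array B over array A, and those of the other 5 genes lie below them.

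Vpreb1 encodes one of the 2 chains of the surrogate light chain, the part that resembles a variable domain. Its probe lies at chr16:16868559-16868618 on the minus strand of mm9, and the bases at its 3′ end show what the array read.
Vpreb1 probe, last 30 bases: agaagatggaattatgcagcttttccttgt
The signal of Vpreb1 was 63.2 ± 9.47 on array A against 119.0 ± 13.2 on array B, which are levels of -4.57 and -3.18. The difference was -1.39 ± 0.27, or 2.62-fold higher on array B, where the error combines the technical errors of both signals. It was -0.94 with the normexp correction, under 2-fold. Of all measured genes, 3.23% had a difference as low or lower. Both levels lie low on the array, and among the 1257 genes whose mean level was within 0.5 of that of Vpreb1, 15.8% were higher on array B by 2-fold or more.

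Vpreb3 encodes a chain that associates with heavy chains inside the cell during the pro-B and pre-B stages. Its probe lies at chr10:75412326-75412385 on the plus strand of mm9 and ends in repeated aataaa letters, the form of a polyadenylation signal.
Vpreb3 probe, last 30 bases: ctgtgtaaacaaataaataaaataaatgtc
The signal of Vpreb3 was 85.2 ± 12.02 on array A against 158.5 ± 17.2 on array B. These are levels of -4.14 and -2.77, with array B again the higher. The difference was -1.38 ± 0.26, or 2.59-fold higher on array B, and -0.92 with the normexp correction. Among the 1285 genes of like level, 15.6% were higher on array B by 2-fold or more.

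Igll1 encodes the constant-domain-like chain that pairs with VPREB1. Its probe, at chr16:16861104-16861163, read 6.05 on array A against 4.89 on array B and was not well above background on either. The probes of Igll1 and Vpreb1 lie 7.4 kb apart, so the pair of surrogate light chain genes sat side by side in the genome with 1 measured and 1 not. Vpreb2, a close copy of Vpreb1, had signals of 15.5 on array A against 7.02 on array B, neither well above background. Whether the Vpreb1 probe also binds Vpreb2 transcripts was not tested.

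Cd79b encodes the Igβ chain of the signalling pair and had the largest difference of the 4. Its probe lies at chr11:106172780-106172839 on the minus strand of mm9.
Cd79b probe, last 30 bases: agaacacactggcttcaagaggagtctagg
The signal of Cd79b was 418.8 ± 42.5 on array A against 1480 ± 148 on array B, which are levels of -1.85 and 0.45. The difference was -2.30 ± 0.21, or 4.93-fold higher on array B, and 0.581% of the measured genes, 86 in all, had a difference as low or lower. Among the 1581 genes of like level, 8.16% were higher on array B by 2-fold or more. The deposited signals of Cd79b before scaling already stood 3.53-fold apart. The same ratio was 2.23 and 2.19 at the 2 probes of Cd72. For Vpreb1 it was 1.88 and for Vpreb3 1.86, both under 2-fold, so the 2-fold calls of Vpreb1 and Vpreb3 rest on the scaling.

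Cd79a encodes Igα, the partner without which CD79B does not reach the surface in a receptor. Its 60-base probe spans chr7:25684357-25684614 of mm9, a stretch of 258 bases, so its bases are not contiguous in the genome. The signal was 20.96 ± 5.93 on array A against 20.71 ± 5.11 on array B, both below the lowest signals called well above background. No difference is given for it.

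Cd72 encodes a surface lectin that dampens signalling from the B-cell receptor. It has 2 probes on the minus strand of mm9 that share 49 of their bases and so are not independent, at chr4:43460596-43460655 and chr4:43460607-43460666.
Cd72 probe at chr4:43460596-43460655, last 30 bases: gaaatatttttaaatactttgcacgtgtta
Cd72 probe at chr4:43460607-43460666, last 30 bases: gcagttttattgaaatatttttaaatactt
The first probe read 488 ± 49.2 on array A against 1088 ± 109 on array B, and the second read 374.6 ± 38.2 and 819 ± 82.1. Their differences were -1.64 ± 0.20 and -1.61 ± 0.21, and both probes were higher on array B. Averaged, Cd72 was 3.08-fold higher on array B, with 2.07% of the measured genes as low or lower and 8.95% of the 1565 genes of like level higher on array B by 2-fold or more.

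Blnk, the adaptor between SYK and phospholipase C, read 7.19 on array A against 5.88 on array B at chr19:41003426-41003485, not well above background. Rag1 read 7.07 and 6.42 on array A and 5.71 and 5.17 on array B at its 2 probes. One probe of Rag2 was spotted 10 times, with a mean of 7.82 and a range of 6.36 to 11.3 on array A and a mean of 6.29 and a range of 4.97 to 11.7 on array B, and its other probe read 6.85 and 5.43. None of these was well above background. At such readings the arrays give only an upper limit on the recombinase genes, and no fold was computed.

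The spots of probes printed 10 times give a measure of the noise inside an array. For 22 such probes with signals of 50 to 200, the range of Vpreb1 and Vpreb3, the standard deviation of the log2 difference over the spots had a median of 0.17 and a highest value of 0.55. For 77 probes with signals of 200 to 2000, the range of Cd79b and Cd72, the median was 0.06 and the highest value 0.29. The 4 differences were larger than these values, which hold spot noise only and leave out variation between cultures, extractions and arrays.

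**Figure D2:**
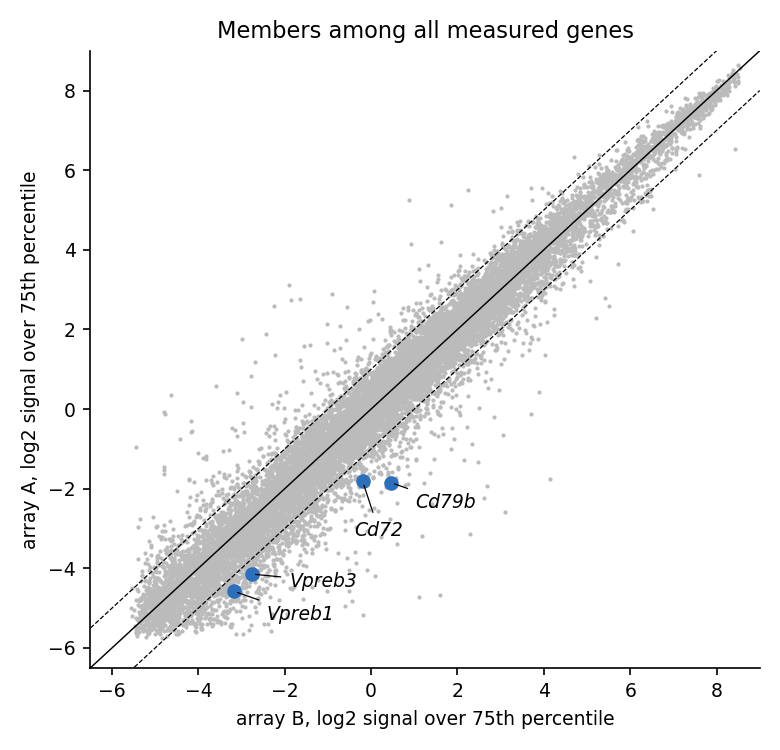
Log2 signal over the 75th percentile on array A against array B for all 14815 genes well above background on both arrays (grey), with the 4 measured genes in blue, the solid line at no difference and the dashed lines at 2-fold. All 4 lie below the lower dashed line, with Vpreb1 and Vpreb3 in the wide low end of the cloud and Cd79b and Cd72 nearer its middle.

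The choice of scaling moved the sizes and not the side. Over 12 alternative settings the difference of Vpreb1 ran from -1.47 to -0.94, that of Vpreb3 from -1.46 to -0.92, that of Cd79b from -2.38 to -2.01 and that of Cd72 from -1.70 to -1.33. Scaling each array to its median in place of its 75th percentile raised the median difference of all genes from -0.02 to 0.27, and the median of the 4 genes from -1.51 to -1.22. List medians near 0 in what follows change sign with such a shift and carry no direction. That scaling shifts every gene alike. Under quantile scaling, which does not, the median of the 4 was -1.36 against 0.03 over all genes, and with the normexp correction it was -1.21 against -0.07.

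**Figure D3:**
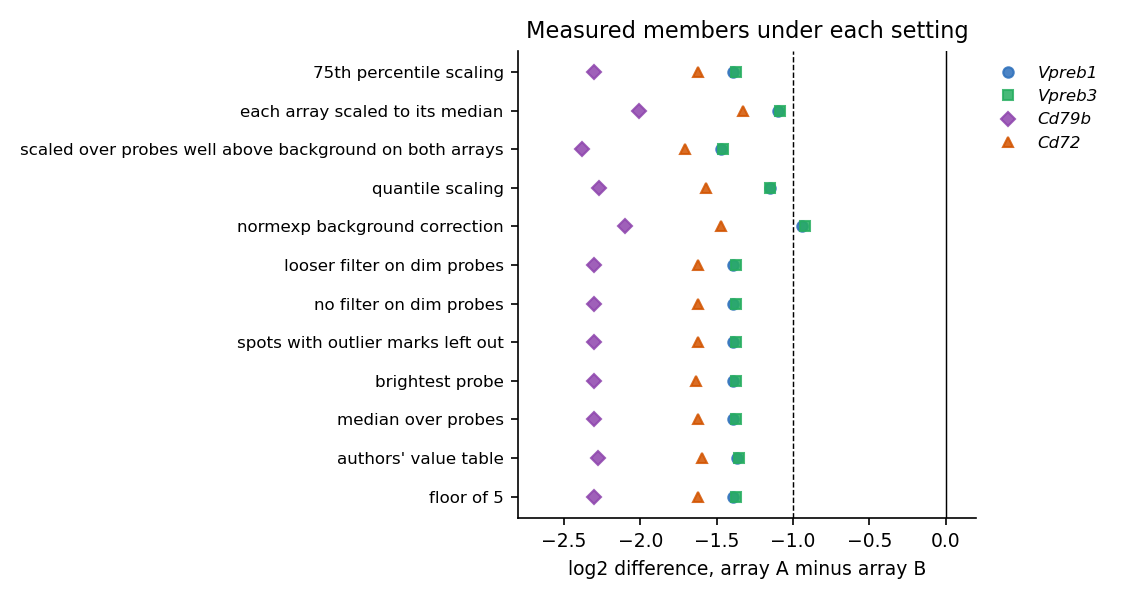
Log2 difference (array A minus B) of the 4 measured genes under the main 75th percentile scaling (top row) and 11 alternatives, with the dashed line at 2-fold and the solid line at 0. All points lie left of 0, and Vpreb1 and Vpreb3 cross the 2-fold line under the normexp correction alone.

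The stretches upstream of the genes are shown because B-lineage factors are known to act on several of these promoters. RefSeq promoters of GRCm38.p6 matched 8 of the 9 genes, and the 250 bases before the start were searched on both strands for letters bound by EBF1 (CCCNNGGG), E2A (CAGGTG), Ikaros (TGGGAA) and ETS factors (AGGAAG), which are in capitals below. These coordinates are of GRCm38.p6 and cannot be set against the mm9 positions of the probes.
Vpreb1, chr16:16869256-16869505, minus strand: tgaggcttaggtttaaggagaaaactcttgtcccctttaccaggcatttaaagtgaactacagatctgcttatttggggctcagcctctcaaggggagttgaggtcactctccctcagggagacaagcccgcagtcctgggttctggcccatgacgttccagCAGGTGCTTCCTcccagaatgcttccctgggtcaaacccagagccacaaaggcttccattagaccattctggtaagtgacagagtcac
Vpreb3, chr10:75948050-75948299, plus strand: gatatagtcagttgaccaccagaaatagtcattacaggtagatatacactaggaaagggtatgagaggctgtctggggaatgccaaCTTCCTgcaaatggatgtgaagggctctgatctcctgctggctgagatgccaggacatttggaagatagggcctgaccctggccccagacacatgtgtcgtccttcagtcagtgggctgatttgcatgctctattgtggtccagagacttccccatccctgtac
Cd72, chr4:43454627-43454876, minus strand: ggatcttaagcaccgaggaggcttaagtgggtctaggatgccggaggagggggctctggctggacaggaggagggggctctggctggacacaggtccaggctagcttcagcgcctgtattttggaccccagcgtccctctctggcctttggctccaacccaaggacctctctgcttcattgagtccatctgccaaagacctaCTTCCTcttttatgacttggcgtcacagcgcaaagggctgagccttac
Igll1, chr16:16863986-16864235, minus strand: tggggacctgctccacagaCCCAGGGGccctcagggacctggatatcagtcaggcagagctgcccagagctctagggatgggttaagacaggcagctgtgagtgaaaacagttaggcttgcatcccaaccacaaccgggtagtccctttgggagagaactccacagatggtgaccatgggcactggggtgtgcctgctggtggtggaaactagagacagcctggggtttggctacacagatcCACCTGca
In the Vpreb1 stretch the E2A letters begin 88 bases before the start and run directly into ETS letters that begin 82 bases before it. The same letters stand in the Vpreb2 promoter, which shares a run of 91 bases with that of Vpreb1. Vpreb3 held ETS letters 164 bases before the start and Cd72 held them 48 bases before it, and neither held the other letters. Igll1, which was not well above background, held EBF1 letters 231 bases and E2A letters 8 bases before the start. E2A letters stood in 5 of the 8 promoters and ETS letters in 6, against 17.2% and 29.5% of all 32851 promoters, while EBF1 and Ikaros letters stood in 1 each, against 11.8% and 21.6%. Cd79a, Blnk and Rag1, none of them well above background, held both E2A and ETS letters, so the letters did not divide the measured genes from the others. A match is a description of the sequence and not a binding site.

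The genes beside the measured ones were read as well. Within 100 kb of the probes of Vpreb1, Vpreb3, Cd79b and Cd72, leaving out the 9 genes themselves, 37 other genes had probes and 26 were well above background on both arrays. None of the 26 was higher on array B by 2-fold or more, against 7.3% of all measured genes. Only 1 was higher on array A by 2-fold or more, against 3.85% of all measured genes. This was Tcam1, at 23.3 kb from Cd79b with a difference of 1.51. Among 26 genes, counts this small lie near those shares and do not set the neighbours apart. The probe of Tesk1 lies 0.2 kb from that of Cd72, and its signals of 2618 and 1870 gave a difference of 0.01. The differences of the 26 genes ran from -0.57 to 1.51.

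The pathway around the pre-B receptor was read through lists of genes, each beside the 3.85% of all measured genes that passed 2-fold towards array A and the 7.3% that passed it towards array B. Of 7 genes on the array from the list of other immunoglobulin and pre-B receptor chains, 2 were measured, and neither encodes a chain. Sppl2a, a protease, had a difference of 0.35. Hspa5, the chaperone BiP that holds free heavy chains, was higher on array A by 1.65. None of the chain genes with a probe, Vpreb2, Ighm, Igkc and Jchain, was well above background, and Ighm, the heavy chain itself, read 10.5 on array A against 6.16 on array B.

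Of 28 genes of signalling below the receptor, 21 were measured, none was higher on array A by 2-fold or more and 3 were higher on array B by 2-fold or more, with a list median of -0.17. They were Lat2, an adaptor of B and mast cells, at -2.39, Pik3cd, the catalytic phosphoinositide 3-kinase subunit of leukocytes, at -1.80, and Dapp1, an adaptor that binds its lipid product, at -1.31. Plcg1, a phospholipase C, was well above background on array B only and was at least 3.73-fold higher there, a bound that fell to a difference of -1.07 with the normexp correction, under which Lat2 stood at -1.57. The kinases stood closer together, with Syk at 0.18, Btk at 0.09 and Lyn at -0.61.

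Of 22 co-receptor and surface marker genes, 9 were measured with a median of 0.02, and Pirb, an inhibitory immunoglobulin-like receptor, was the only one higher on array B by 2-fold or more, at -1.60, with none higher on array A. Ptprc, the phosphatase CD45, had a difference of 0.75.

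Of 18 genes of V(D)J recombination and end joining, 15 were measured with a median of -0.04. Polm, a polymerase of end joining, was higher on array B by a difference of -1.35, and Xrcc4, the partner of the ligase that seals the ends, was higher on array A by 1.07, or 0.98 when the scaling used only probes well above background on both arrays. The 3 that were not well above background were Rag1, Rag2 and Dntt, the polymerase that adds bases at the joints, which read 18.8 on array A against 7.68 on array B.

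Of 26 B-lineage transcription factor genes, 11 were measured with a median of -0.08, and 3 were higher on array A by 2-fold or more against none on array B. These were Ikzf1, which encodes Ikaros, at 1.77 or 1.19 with the normexp correction, Id2, an inhibitor of E proteins, at 1.16, and Xbp1, a factor of the secretory programme, at 1.15. The value of Ikzf1 rests on 1 of its 2 probes, since the other was not well above background on both arrays. Irf8 was well above background on array B only and was at least 4.01-fold higher there, a bound that fell to a difference of -0.94 with the normexp correction. Tcf3, which encodes E2A, had a difference of -0.62. Ebf1 read 8.29 on array A against 6.63 on array B, and Pax5 read at most 10.2 and 6.63 over its 2 probes. Neither of these factors that fix B-cell identity was well above background.

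Of 16 early progenitor receptor and pro-B surface genes, 7 were measured with a median of -0.06. Of these, 3 were higher on array B by 2-fold or more and 1 was higher on array A. Among the 3 were Cxcr4, the chemokine receptor that holds B precursors in bone marrow, at -2.98, and Spn, the pro-B marker CD43, at -1.08. Spn was at -0.78 when arrays were scaled to their median. Il2ra, a subunit of the interleukin-2 receptor found on pre-B cells, was higher on array A by 2.91. Il7r, the receptor for the main growth factor of B precursors, read 8.54 and 6.87 and was not well above background.

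**Figure D4:**
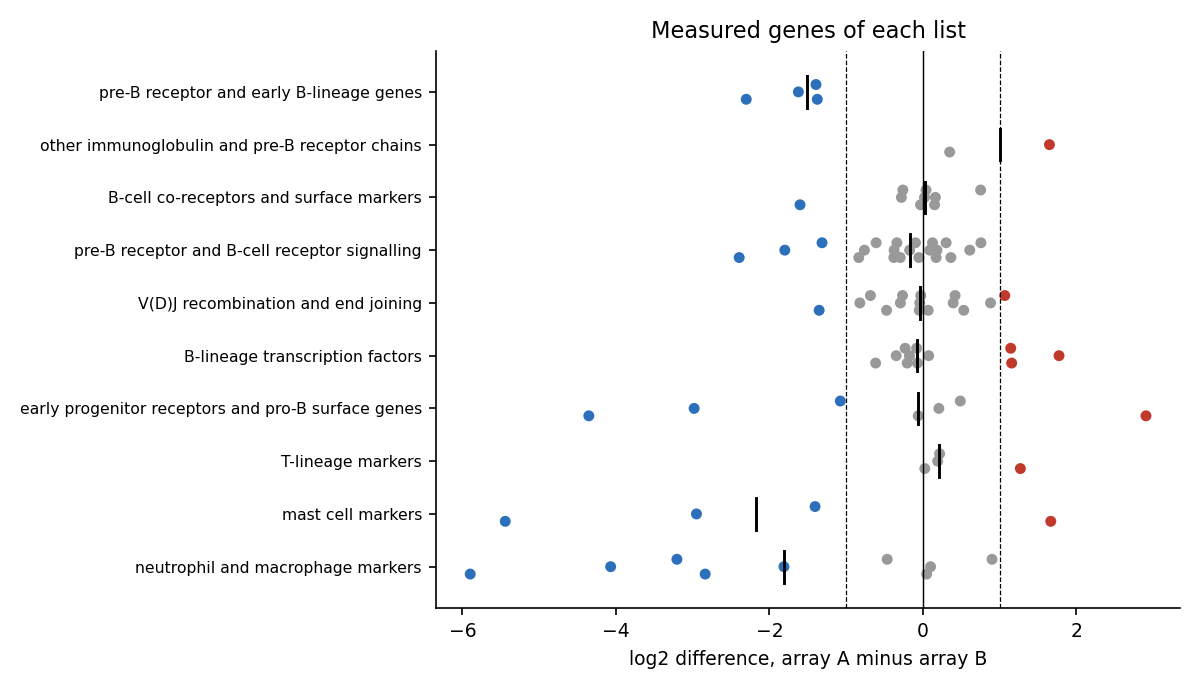
Log2 difference (array A minus B) of each gene well above background on both arrays in the 9 genes described here (top row) and in 9 other lists, with black bars at the list medians and dashed lines at 2-fold. Red points are higher on array A by 2-fold or more and blue points higher on array B by 2-fold or more, and the lowest points of all stand in the mast cell and the neutrophil and macrophage lists.

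The label of Ba/F3 as a pro-B line was set against 10 pro-B markers, of which 4 were well above background on both arrays, namely Cd79b, Vpreb1, Ptprc and Spn. The other 6, among them Cd79a, Igll1, Ebf1, Pax5 and Cd93, were not on either. Over the whole array, 14815 of 31709 gene names were well above background on both arrays. The count of 4 of 10 lies near that share and so is no check of the label. Cd79a, Cd79b, Vpreb1 and Igll1 are also among the 9 genes described here. The summed level of the 10, in multiples of the 75th percentile, was 13.0 on array A against 16.6 on array B, and Spn and Ptprc made up most of it while differing in opposite directions. Spn was at 5.66 on array A against 11.0 on array B, and Ptprc was at 6.96 against 4.13. Without Spn the sum turned, with 7.31 on array A against 5.65 on array B. Of 5 mature B markers 1 was measured on both arrays. Of 7 T-cell markers 4 were, with a summed level of 3.95 on array A against 3.46 on array B. Lck alone gave 3.18 and 2.78 of these sums, and without Lck they were 0.77 and 0.68.

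Some markers of myeloid cells were higher on the same array as Vpreb1, Vpreb3, Cd79b and Cd72, and others were not. The summed level of 5 mast cell markers was 0.13 on array A against 5.75 on array B, of which Cpa3 alone gave 4.90 on array B, and Ms4a2, Tpsab1 and Kit were not well above background on either. The summed level of 7 neutrophil and macrophage markers was 1.80 on array A against 19.7 on array B, and without S100a9 it was 1.503 against 2.132. In the wider lists, 3 of the 4 measured mast cell genes, whose median was -2.18, were higher on array B by 2-fold or more, the protease gene Cpa3 at -5.44, Cma1 at -2.95 and Gata2 at -1.40, while Hdc was higher on array A by 1.67. Fcer1a, a chain of the IgE receptor, was higher on array B by at least 45.7-fold, a bound that fell from a difference of -5.51 to -3.91 with the normexp correction. Of 9 measured neutrophil and macrophage genes, with a median of -1.81, 5 were higher on array B by 2-fold or more, S100a9 at -5.90, Ngp at -4.07, Prtn3 at -3.20, Mpo at -2.84 and Ctsg at -1.81. The other 4 were Csf1r at -0.46, Itgam at 0.05 with probes at -0.54 and 0.64, Elane at 0.10 and Adgre1 at 0.90. S100a8 was higher on array B by at least 180-fold, a bound that fell from a difference of -7.49 to -5.57 with the normexp correction. The same correction left Cpa3 at -4.84, Cma1 at -1.74, Ngp at -2.99, Prtn3 at -2.24, Mpo at -1.82 and Ctsg at -1.06. Of 4 measured T-lineage genes, with a median of 0.21, Cd3d was higher on array A by 1.27, or 0.60 with the normexp correction, and Cd5 was higher on array B by at least 2.82-fold, a bound that fell to a difference of -0.95 with that correction. The part of these markers in the differences of the pre-B receptor genes was not tested.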

How the data were processed

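RNA of each line was labelled with Cy3 and read on 1 array. The authors deposited the scanner output, whose spot intensity comes from Agilent Feature Extraction 9.5.1.1 after the software's own background correction, with a surrogate for spots near background. The authors also deposited a table of log2 values scaled to the 75th percentile, used here to identify the arrays and as an alternative. Its scale is log2 and not centred per gene. Its direction is not assigned here because its columns are exchanged against the scanner output and no measured gene was used to assign a line.

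Of 44397 features, 43020 were not controls and made up 39429 probes. A floor of 1.0 on the signal touched no spot. Signals were divided by the 75th percentile of their array, log2 was taken, spots of a probe were averaged, and a gene took the mean over its probes well above background on both arrays. Genes well above background on 1 array only were given a bound against the lowest signal called well above background on the other. Probes were named through a RefSeq table of GRCm38.p6, of which 26055 matched an accession, 3195 a symbol and 930 an earlier symbol, with 9248 keeping the file's name and 1 named by its description. Probe coordinates are mm9 as in the scanner output, and exons and UTRs were not looked up.

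No test was run, since each line had 1 array, and the number of arrays limits the precision. The genes and lists were chosen with earlier results of these data known. All 9 genes are named, and of each other list up to 4 genes a direction at least 2-fold apart, with the largest differences, besides fixed genes such as Pax5 and Ebf1. Some genes that this rule would name are not reported here. Alternatives covered the scaling, the background correction, the filter on dim probes, outlier marks, the rule for several probes, the floor, the fold threshold and the value table. Scripts were tested on simulated data. Python 3.11.15, numpy 2.4.6, pandas 2.3.3, matplotlib 3.10.9, R 4.3.3 and limma 3.58.1 (normexp with an offset of 50) were used.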

Additional observations from a re-analysis of the deposited data

How the results depend on the processing

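Of 48 differences of the 4 measured genes under 12 alternatives, 0 changed sign, 42 stayed within their technical error and 6 moved beyond it. The dim-probe filters, outlier marks, median over probes, floor and fold threshold left all 4 values exactly as they were. The 42 therefore include many values that these alternatives could not move, and they are no measure of stability. The number of the 4 that passed 2-fold towards array B was 4 under the other alternatives, 2 with the normexp background correction and 2 with a 3-fold threshold, and the count on array A was 0 under every alternative. Over all genes, the count towards array A was 1313 under median scaling, 1133 under a looser dim-probe filter, 1491 with no filter and 156 at 3-fold. The count towards array B was 587 under median scaling, 707 under normexp, 1876 with the looser filter, 2777 with no filter and 333 at 3-fold. Of 216 counts over the other lists, 18 moved by over 1.5 times. The cause of these moves was not tested, except that looser filters take in more genes and a 3-fold threshold takes in fewer. The offset added with normexp also draws differences of dim probes towards 0 by construction. No paired analysis was possible because each line has 1 array and no test was run. For 5 of the 9 genes the signal was too near background for a difference to be detectable.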
